A study of Homo sapiens with 6 samples.

Results

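The ubiquitin-specific proteases (USPs) are the largest family of deubiquitinases, the enzymes that cut ubiquitin from proteins. Their m6A peaks were described here in U2OS, a human osteosarcoma cell line, with and without knock-down of the m6A reader YTHDF2 (DF2). A USP gene was any row of the peak lists named USP followed by digits, with an optional closing X or L. Of 49 such symbols in RefSeq, 35 had a peak in at least 1 list, out of 10785 gene symbols with a peak in any list. These 35 genes held 156 of 41729 peaks. Membership came from the gene name, with 1 gene of the family left out, and not from a measured value.

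Cytoplasmic RNA of U2OS cells labelled wild type was broken to fragments of about 100 nt and pulled down through m6A, with an input library beside each pull-down. The 3 conditions were control siRNA, DF2 siRNA 1 and DF2 siRNA 2, which are different siRNAs against the same gene. There were 6 libraries, 1 input and 1 m6A pull-down per condition, and the peaks came as 1 merged list per condition. No spread between replicates can be given, so nothing below carries a test between conditions. A difference between lists is a difference between those lists. Read depths are unknown for these lists. The 2 knock-down comparisons share the control list, so they are not independent of each other.

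N6-methyladenosine (m6A) is an internal mark of messenger RNA, laid down mostly at DRACH motifs and concentrated around stop codons and in 3′ UTRs. YTHDF2 binds the mark in the cytoplasm and recruits machinery that shortens the poly(A) tail, which hastens decay of the transcript. USPs act on proteins as different as histones, receptors and mitochondrial outer membrane proteins, and most work together with adaptor proteins that choose the substrate. A peak shows where methylated fragments were enriched, and gives neither the level of the transcript nor of the protein.

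Peaks over the first bases of a transcript are shown here as sequence because several of the USP peaks seen with an siRNA and not in the control lay there. RefSeq starts were matched for 38 of the 49 symbols, 29 of them with a peak. In 6 genes a peak covered at least part of the first 50 bases. For USP2, USP32 and USP54 the matched start lies inside the RefSeq gene span and not at its first base. The windows below are RefSeq sequence (GRCh38.p14), 5′ to 3′ on the gene's strand, from the first 50 bases. Capitals mark GGAC, the most common core of the m6A motif. The USP21 window (chr1:161159500-161159529, plus strand) lay under a peak of DF2 siRNA 1, the USP2 window (chr11:119364169-119364198, minus strand) under peaks of control and DF2 siRNA 1, the USP12 window (chr13:27171782-27171811, minus strand) under a peak of DF2 siRNA 1, and the USP32 window (chr17:60392104-60392133, minus strand) under peaks of both DF2 siRNAs.
USP21: ggtggccgggcgGGACcaacaaagatggcg
USP2: agcgcgagagccgGGACccgggctgttggc
USP12: agtgcctgagcgccggcggcgacgacggca
USP32: cgtgatccggcatggaggcggtggcggcga
GGAC was read on the transcript strand and its complement GTCC stands for the other strand. GGAC was present in the first 50 bases of USP21 and USP2 and not in those of USP12, USP32, USP38 and USP54, and GTCC was in none of the 6. Over 35116 RefSeq starts, 18.9% held GGAC and 17.6% held GTCC in the same 50 bases. A match is a description of the letters, and the peaks reach beyond these windows.

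The number of USP genes with a peak was the same in all 3 lists, at 31, although the lists differed in length. The control list held 53 USP peaks of 15272 (9553 genes), DF2 siRNA 1 held 52 of 13147 (8368 genes) and DF2 siRNA 2 held 51 of 13310 (8559 genes). Of the 35 genes, 26 (74.3%) had a peak in every list, against 65.4% of all genes with a peak. USP8 and USP37 had peaks in the control list only, USP16 in control and DF2 siRNA 1, and USP45 and USP46 in control and DF2 siRNA 2. USP5, USP19 and USP21 had peaks with both DF2 siRNAs and none in control, and USP12 with DF2 siRNA 1 only. No USP gene had peaks with DF2 siRNA 2 alone.

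Over the whole lists, the shares of USP genes found on only one side of a comparison were near those of all genes. Of 31 control genes, 4 had no peak with DF2 siRNA 1 (12.9%, exact binomial 95% interval 3.63 to 29.8), against 22.1% of all control genes. With DF2 siRNA 2, 3 of 31 had none (9.68%, interval 2.04 to 25.8), against 17.6%. In the other direction, 4 of the 31 genes with DF2 siRNA 1 had none in control (12.9%, background 11.1%) and 3 of the 31 with DF2 siRNA 2 (9.68%, background 8.06%). All 4 background shares lie inside the USP intervals, which cover counting error only. Among the top 50% of each list by score, 8 of 22 control genes had no DF2 siRNA 1 peak that was kept (background 22.1%). The order of USP genes and background was thus the other way round there. With the top 50% by fold enrichment it was 9 of 24 against 28.4%. With DF2 siRNA 2 the order turned by fold enrichment (7 of 24 against 21.7%) and not by score (3 of 22 against 18.9%). Of these genes, only USP8 by score and USP45 by fold enrichment lack any DF2 siRNA 1 peak. Only USP16 by fold enrichment, and USP8 and USP16 by score, lack any DF2 siRNA 2 peak. The others have lower-ranked peaks in that DF2 list. Among genes with a DF2 siRNA 2 peak in the top 50% by score, 6 of 25 had none in the control's top 50%, against 7.33% of all genes; these were USP2, USP5, USP19, USP21, USP35 and USP43, of which USP2, USP35 and USP43 have lower-scoring control peaks. By fold enrichment that count was 0 of 17 against 9.93%. With DF2 siRNA 1 it was 2 of 16 by score (background 10.2%) and 1 of 16 by fold enrichment (background 15.5%). The counts within the top 50% rest on fewer genes and are given without intervals. Their order against the background is thus description only.

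Single peaks gave much the same picture. A peak was counted as found in another list when it shared at least 1 base on the same strand with a peak there. Of 53 control peaks, 42 were found with DF2 siRNA 1 (79.2%, interval 65.9 to 89.2), against 67.1% of all control peaks. With DF2 siRNA 2, 44 were found (83%, interval 70.2 to 91.9), against 73.4%. Of the peaks of DF2 siRNA 1, 42 of 52 were found in control (80.8%, background 81.5%), and of those of DF2 siRNA 2, 42 of 51 (82.4%, background 86.1%). The backgrounds for genes, peaks found, peaks per gene and ranks include peaks on non-coding RNA, while all USP genes code for protein. They were not computed over coding transcripts alone.

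**Figure D1:**
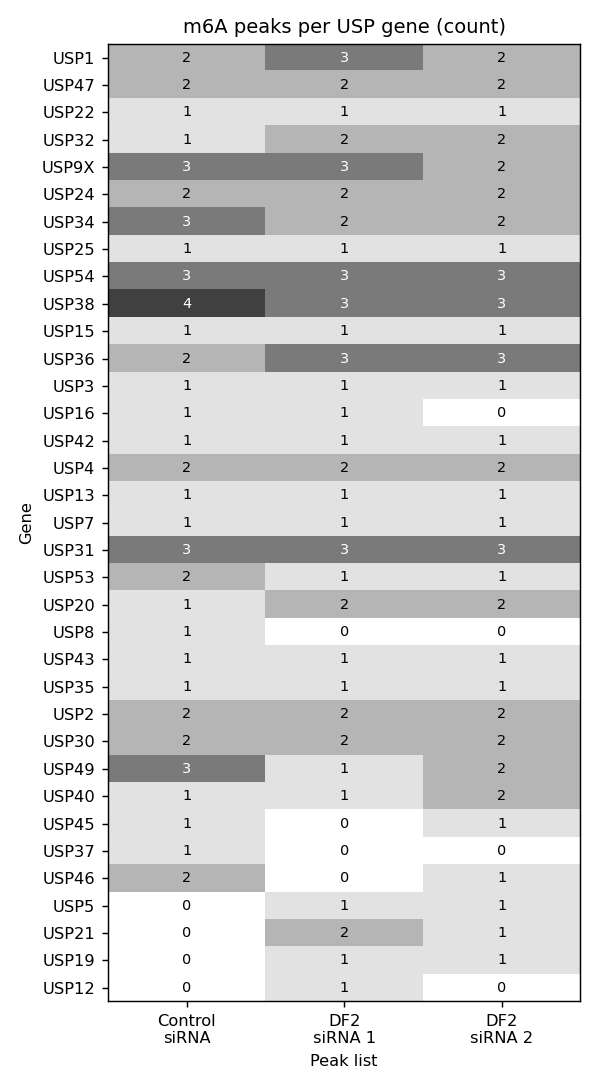
Number of m6A peaks of each of the 35 USP genes (vertical axis) in the control, DF2 siRNA 1 and DF2 siRNA 2 lists (columns), printed in each cell, with darker cells for more peaks. USP38 has the most, with 4 in control and 3 in each DF2 list, and the 4 genes at the bottom have 0 in control.

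Peaks per gene differed little from all genes. Among USP genes with a peak, 15 of 31 had more than 1 in control (48.4%, background 39.4%), 15 of 31 with DF2 siRNA 1 (48.4%, background 38.6%) and 16 of 31 with DF2 siRNA 2 (51.6%, background 37.8%). The mean number was 1.71, 1.68 and 1.65 peaks per USP gene in that order, against 1.59, 1.57 and 1.55 over all genes. Genes with 3 or more peaks in some list were USP1, USP9X, USP31, USP34, USP36, USP38, USP49 and USP54.

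The USP peaks lay mainly at stop codons and in 3′ UTRs. A peak was called a stop codon peak when the authors' annotation listed a stop codon among the parts it touched, in any isoform. These were 28 of 53 USP peaks in control (52.8%, interval 38.6 to 66.7), 24 of 52 with DF2 siRNA 1 (46.2%, interval 32.2 to 60.5) and 28 of 51 with DF2 siRNA 2 (54.9%, interval 40.3 to 68.9). Over all peaks the shares were 42.9%, 43.5% and 43.7%. All USP genes code for protein, while 12.6%, 7.61% and 10.6% of all peaks lay on non-coding RNA. Over peaks on coding transcripts only, the stop codon shares were 50.7%, 47.8% and 50.1%, close to those of the USP peaks.

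Peaks in 5′ UTRs were few among the USP genes. They were 3 of 53 in control (5.66%, interval 1.18 to 15.7), against 17.1% of all peaks on coding transcripts. With DF2 siRNA 1 they were 6 of 52 (11.5%, interval 4.35 to 23.4, background 20.7%), and with DF2 siRNA 2 they were 4 of 51 (7.84%, interval 2.18 to 18.9, background 19%). The background was just above the interval in the control and DF2 siRNA 2 lists, and inside it in the DF2 siRNA 1 list. Another 4, 5 and 4 USP peaks that touch a 5′ UTR also touch an annotated stop codon and were counted there. With them, 7 of 53 USP peaks touched a 5′ UTR in control (13.2%, interval 5.48 to 25.3, background 27.5%), 11 of 52 with DF2 siRNA 1 (21.2%, interval 11.1 to 34.7, background 30.7%) and 8 of 51 with DF2 siRNA 2 (15.7%, interval 7.02 to 28.6, background 29.2%). Many of these peaks recur between lists, so they are not independent counts. Another 15, 14 and 14 USP peaks lay in 3′ UTRs and 7, 8 and 5 in coding sequence, in the order control, DF2 siRNA 1, DF2 siRNA 2.

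**Figure D2:**
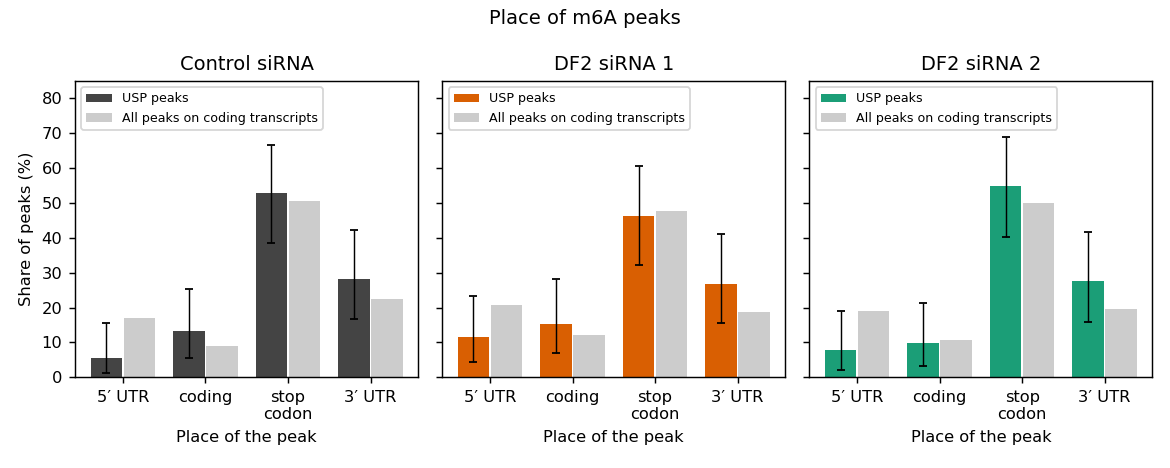
Share of m6A peaks (vertical axis, %) by place (5′ UTR, coding, at the stop codon, 3′ UTR) in each of the 3 lists, for USP peaks (coloured) and all peaks on coding transcripts (grey). Error bars are exact binomial 95% intervals of counting error; the USP bars are near the grey ones at the stop codon and below them in the 5′ UTR (5.66% against 17.1% in control).

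A stop codon label did not always mean the end of the gene. Of the stop codon peaks, 19 of 28 in control, 16 of 24 with DF2 siRNA 1 and 20 of 28 with DF2 siRNA 2 lay in the last 20% of the gene's RefSeq span, introns included. The middle of the peak was in the first 50% of the span for USP1, USP2, USP4 and USP35 in control. With DF2 siRNA 1 this held for USP2, USP4, USP12, USP21 and USP35, and with DF2 siRNA 2 for USP2, USP4, USP21 and USP35. For USP12 the peak sat at 0.108% of the span, over the transcript start shown above.

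**Figure D3:**
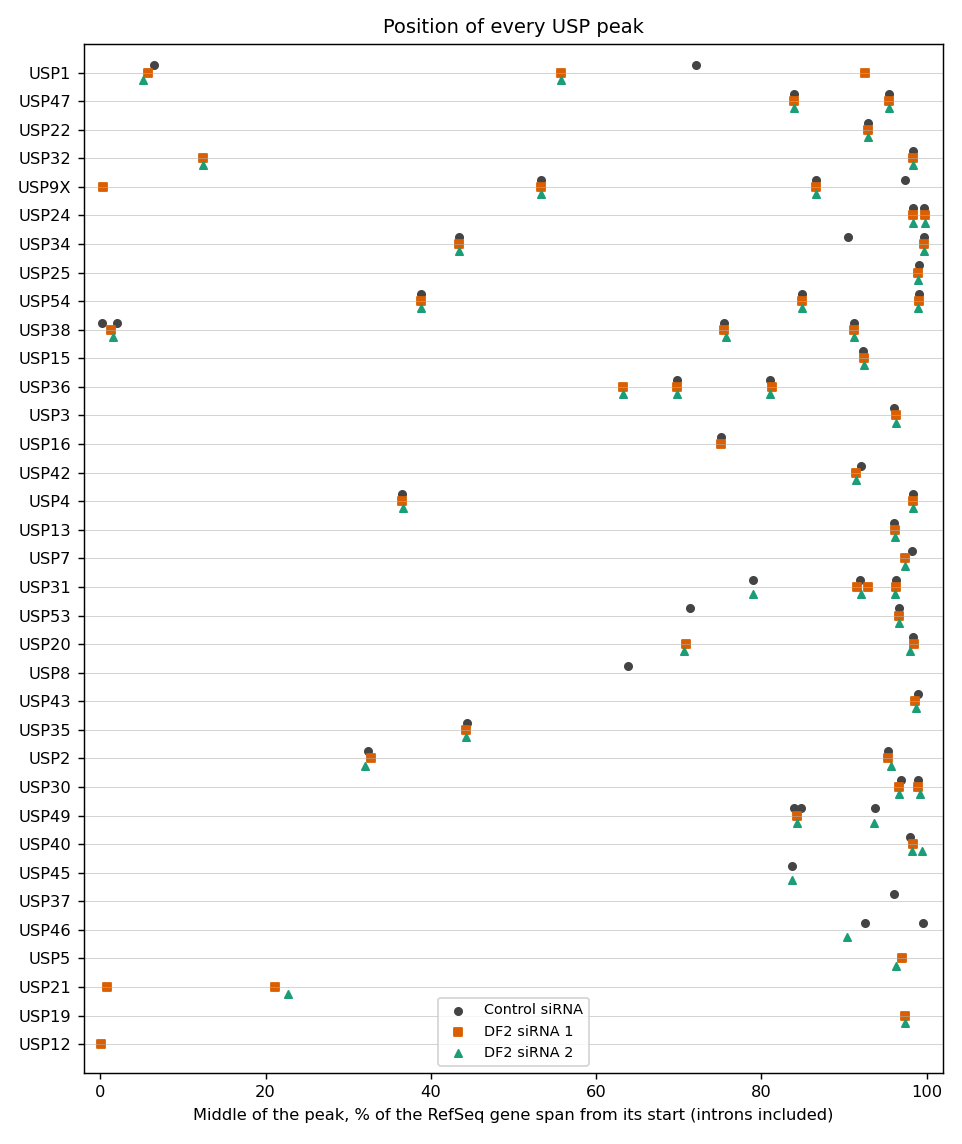
Position of the middle of every USP peak along its gene (horizontal axis, % of the RefSeq gene span from the start, introns included), with genes on the vertical axis in order of their strongest control score. Circles, squares and triangles are the control, DF2 siRNA 1 and DF2 siRNA 2 lists; most symbols sit at the right-hand end, and the USP32 squares and triangles at 12.4% have no circle.

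Peak strength could be ranked only within a list. The deposited score is a whole number of unstated unit, and its median was 158 in control, 33 with DF2 siRNA 1 and 99 with DF2 siRNA 2. Each peak is therefore given as a percentile, the share of peaks of its own list with the same score or a lower one. Tied peaks, the peak itself included, count in that share. Strong and weak refer to the score unless fold enrichment is named. The median percentile of a USP gene's strongest peak was 69.6 in control, 57.7 with DF2 siRNA 1 and 59.7 with DF2 siRNA 2. Over all genes it was 60.2, 59.8 and 59. Thus the USP median stood above that of all genes in the control list and close to it in the others. Ranked by the authors' fold enrichment instead, the USP median was 69.4, 54.4 and 57.3 and that of all genes 62.7, 60.7 and 60.9. By that measure the USP median was above that of all genes in control and below it in both DF2 lists. The USP medians rest on 31 genes per list and are given without an interval, so their order is description only. Peaks with an FDR of 0.01 or more were 13.2%, 13.5% and 23.5% of USP peaks, against 18.8%, 17.3% and 17.3% of all peaks. The lists differ in length and content, so these positions describe each list and measure no change of methylation.

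**Figure D4:**
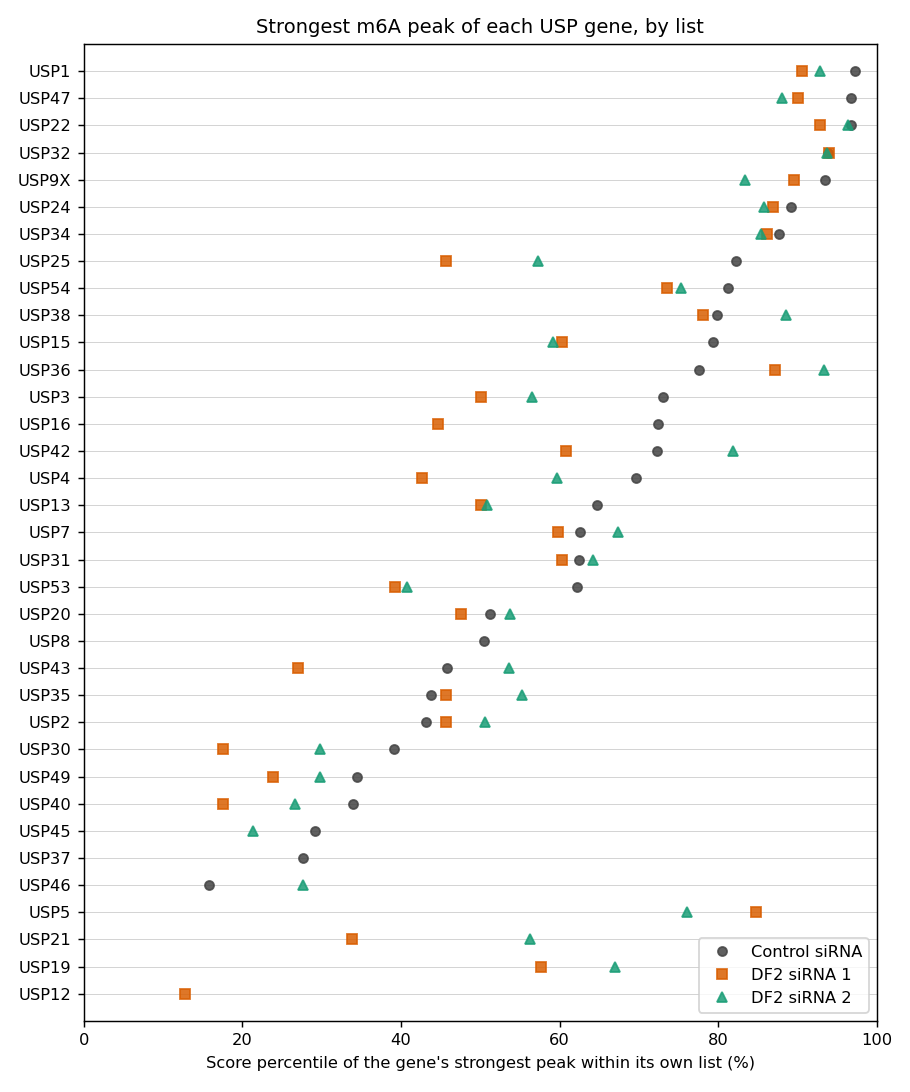
Score percentile of the strongest m6A peak of each USP gene within its own list (horizontal axis, %), for control (circles), DF2 siRNA 1 (squares) and DF2 siRNA 2 (triangles); a missing symbol means no peak in that list. USP1, USP47, USP22 and USP32 are at the right, USP25 has a circle at 82.2 and its other symbols at 45.7 and 57.3, and USP36 has its circle at 77.6, left of both others.

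The 10 USP genes with the highest control score were USP1, USP22, USP47, USP32, USP9X, USP24, USP34, USP25, USP54 and USP38. Each of them had a peak in all 3 lists. Percentiles of 90 or more in a list were reached by 5 USP genes in control, 4 with DF2 siRNA 1 and 4 with DF2 siRNA 2.

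Among the USPs of DNA repair and the cell cycle, 3 of 7 had a peak in some list. USP1, which with its partner WDR48 removes ubiquitin from FANCD2 and PCNA, had the USP peak with the highest score in the control list. That peak (chr1:62443282-62450941) covered 1800 bases of exon, with a score of 2902 at percentile 97.3. By fold enrichment it stood at percentile 72.9, below control peaks of USP47 at 97.9 and USP32 at 96.6. With DF2 siRNA 1 the same USP1 stretch held 2 separate peaks, at score percentiles 90.5 and 67.8. With DF2 siRNA 2 it held 1, at 92.8 by score and 40.2 by fold enrichment (chr1:62443282-62445298). A weaker USP1 peak near the start of the gene was at percentile 75.8 in control, 65 with DF2 siRNA 1 and 82.5 with DF2 siRNA 2. USP1 thus had peaks at both places in every list, with different extents.

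USP47, an enzyme acting on DNA polymerase beta in base excision repair, had a pair of stop codon peaks in every list. The stronger (chr11:11940462-11943524) had identical ends in the 3 lists and stood at percentile 96.8 in control, 90 with DF2 siRNA 1 and 88.1 with DF2 siRNA 2. The other, near the gene's end, stood at 90.7, 79.7 and 78.8. USP37, which stabilises cyclin A, had a stop codon peak of 200 bases in control only (chr2:218454741-218454940), with a score of 38 at percentile 27.7. It was a weak peak in its list and did not pass an FDR under 0.01. USP11, USP28, USP29 and USP48 had no peak.

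The chromatin and histone USPs had peaks in 7 of 10 genes, 6 in control, 7 with DF2 siRNA 1 and 6 with DF2 siRNA 2. USP22, the ubiquitin protease of the SAGA coactivator, which acts on histone H2B, had 1 peak in its 3′ UTR (chr17:21002401-21003000). Its 600 bases were the same in all 3 lists, and its scores of 2661, 276 and 1396 stood at percentiles 96.8, 92.8 and 96.3. Its module partner ATXN7L3 stood at 98.4, 97.4 and 99, while USP27X and USP51, which can take the place of USP22 beside ATXN7L3, had no peak, and neither had USP44.

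USP36, a nucleolar enzyme that also stabilises MYC, had 2 control peaks and 3 with each DF2 siRNA. The coding peak (chr17:78803394-78806170) had the same ends in each list, at percentile 77.6 in control, 87.2 with DF2 siRNA 1 and 93.3 with DF2 siRNA 2. The 3′ UTR peak stood at 77, 78.4 and 88.2. A further stop codon peak (chr17:78807043-78807442) was listed with DF2 siRNA 1 at 67.4 and with DF2 siRNA 2 at 80.9, and not in control. Both DF2 lists thus held every USP36 control peak and the added one. By fold enrichment the added peak stood at percentiles 45.6 and 32.1. It passed an FDR under 0.01 with DF2 siRNA 1 and not with DF2 siRNA 2.

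USP21, a histone H2A protease, had no control peak. A peak at chr1:161160500-161161012 was listed with DF2 siRNA 1 at percentile 33.8, and one 200 bases longer with DF2 siRNA 2 at 56.3. A second peak, over the transcript start with the GGAC shown above, was in the DF2 siRNA 1 list at 19.8. These are low to middling positions within their lists. Neither USP21 peak of DF2 siRNA 1 passed an FDR under 0.01, while that of DF2 siRNA 2 did.

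USP16, another H2A protease, had a coding peak at percentile 72.4 in control and 44.7 with DF2 siRNA 1, and none with DF2 siRNA 2. USP3, which also acts on H2A, had a peak of 800 bases in control (stop codon, 73) and of 400 bases in the same place in both DF2 lists (3′ UTR, 50.1 and 56.5). USP49, an H2B protease, had 3 control peaks at percentiles of 34.5 and below. Of them, 2 were covered by 1 joined peak with DF2 siRNA 1 at 23.8 and with DF2 siRNA 2 at 29.8. The other control peak (chr6:41796217-41797737), at 28.1, overlapped a DF2 siRNA 2 peak at 11.4 and no DF2 siRNA 1 peak.

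USP7, the protease of MDM2 and p53, had a peak in each list but in a different place. In control it lay in the 3′ UTR (chr16:8893063-8893662) at percentile 62.6. In both DF2 lists it was a stop codon peak of 200 bases (chr16:8893863-8894062), at 59.8 and 67.4. By fold enrichment the control peak stood at percentile 35.6 and the DF2 peaks at 29.3 and 20.2. Neither DF2 peak passed an FDR under 0.01, while the control peak did. The control and DF2 peaks lay next to each other and shared no base. With a gap of up to 100 bases still counted as found, USP7 would remain apart, since the ends are 200 bases from each other.

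All 7 signalling USPs had a peak in some list, with 6 in each. USP9X, an X-linked protease with SMAD4 and MCL1 among its substrates, carried its strongest peaks in coding sequence. The peak at chrX:41215913-41217279 had the same ends in each list and stood at percentile 93.4 in control, 89.6 with DF2 siRNA 1 and 83.4 with DF2 siRNA 2. A second coding peak stood at 80.5, 75.2 and 68.3. Its stop codon peak (chrX:41232418-41232817) was in the control list only, at 74.7, and a 5′ UTR peak was in the DF2 siRNA 1 list only, at 47.5. The 5′ UTR peak did not pass an FDR under 0.01.

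USP34, which stabilises axin in Wnt signalling, had a 3′ UTR peak (chr2:61187988-61188955) at percentile 87.6 in control, 86.1 with DF2 siRNA 1 and 85.4 with DF2 siRNA 2. A coding peak stood at 82.9, 79.6 and 77.2. One more coding peak (chr2:61214073-61214672), was in the control list only, at 74. USP34 and USP9X thus each kept 2 peaks in every list and had another, with score percentiles near 74, in control alone. By fold enrichment these control-only peaks stood at 44.4 for USP34 and 23.1 for USP9X. The USP9X peak did not pass an FDR under 0.01, while the USP34 peak did.

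USP4 and USP15, which act on TGF-beta receptors and SMADs, had their peaks in all 3 lists. USP15 stood at 79.4, 60.3 and 59.2 at its stop codon. USP4 had a pair of peaks, the stronger at 69.6, 42.6 and 59.7. In the DF2 siRNA 1 list a peak assigned to the neighbouring C3orf62 also overlapped that USP4 peak, so which gene it belongs to is uncertain there. USP42, a p53 protease, had 1 long stop codon peak at 72.3, 60.8 and 81.8.

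USP12 and USP46 are close relatives that share the adaptors WDR48 and WDR20. USP12 had 1 peak, over its transcript start, with DF2 siRNA 1 only, with a score of 7 at percentile 12.8. USP46 had 2 control peaks in its 3′ UTR, at 15.8 and 13.4. With DF2 siRNA 2 it had a stop codon peak at 27.6 that overlapped neither of them (chr4:52597489-52597688), and with DF2 siRNA 1 it had none. All 4 of these peaks stood below the median of their lists. WDR48 had 1 peak in each list, at 77.5, 66.7 and 68.8.

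Among USPs of the endosome, Golgi, ER and mitochondria, 6 of 8 had a peak, with 5 in each list. USP32, a protease of the late endosome and Golgi, had a stop codon peak at percentile 93.9 in control, 94 with DF2 siRNA 1 and 93.7 with DF2 siRNA 2. These percentiles lay closer together than those of any other of the 10 genes with the highest control score. A weaker peak (chr17:60345597-60392377, 400 bases of exon) had its middle at 12.4% of the gene span and covered the start shown above. It was listed with both DF2 siRNAs at percentiles 25.4 and 34.7 and not in control. Only the DF2 siRNA 2 peak there passed an FDR under 0.01.

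USP8, which deubiquitinates receptors on endosomes with the help of STAM, had a stop codon peak at chr15:50481603-50482002 in control only. Its score of 162 stood at percentile 50.5, higher than USP37, the other gene seen in control alone. By fold enrichment the USP8 peak stood at percentile 29.5 and the USP37 peak at 17.6, and neither passed an FDR under 0.01. STAM2 had 2 control peaks and none in either DF2 list, while STAM had 1 peak in each, at 74.4, 60.8 and 57.9. USP19, an ER-anchored protease, had a stop codon peak (chr3:49108177-49108720) with DF2 siRNA 1 at 57.7 and with DF2 siRNA 2 at 67, with the same ends, and none in control.

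USP25, a protease linked to ER-associated degradation and immune signalling, had a stop codon peak in every list with the same start. It covered 800 bases in control, 400 with DF2 siRNA 1 and 600 with DF2 siRNA 2, at percentiles 82.2, 45.7 and 57.3. Of the 10 genes with the highest control score it stood lowest in both DF2 lists, followed by USP54. USP20, which acts on beta-adrenergic receptors, had a 3′ UTR peak in each list at 51.2, 47.5 and 53.8. It also had a weak coding peak with both DF2 siRNAs, at 19.8 and 27.1, which passed an FDR under 0.01 in neither list. USP30, which opposes Parkin at mitochondria, had 2 weak peaks in each list, the stronger at 39.1, 17.6 and 29.8. USP6 and USP33 had no peak.

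Of the 3 USPs of the proteasome and free ubiquitin chains, USP5 differed most between lists. USP5, which takes apart unanchored chains, had no control peak. With DF2 siRNA 1 it had a stop codon peak (chr12:6864872-6866494) of 600 bases at percentile 84.7, and with DF2 siRNA 2 one of 400 bases at 76. By score it stood above the other genes without a control peak in both DF2 lists. By fold enrichment it stood at percentile 71.9 with DF2 siRNA 1 and 26.3 with DF2 siRNA 2, where USP21 was at 42.8 and USP19 at 38, and its DF2 siRNA 2 peak did not pass an FDR under 0.01. Its paralogue USP13 had a stop codon peak in each list, at 64.7, 50.1 and 50.8, and the proteasome-bound USP14 had none. USP18, the protease of the ubiquitin-like ISG15, had no peak either.

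USP39, USP53 and USP54 were long described as lacking activity, though USP53 and USP54 have since been reported to cut ubiquitin chains. USP54 had 3 peaks in every list, the strongest in the 3′ UTR class at 81.2 in control, 73.5 with DF2 siRNA 1 and 75.3 with DF2 siRNA 2. Its other peaks stood at 53.6, 46.6 and 48.7 near the gene's end and at 44.2, 19.8 and 28.2 in the 5′ UTR class. USP53 had 2 control peaks, the stronger at 62.2, and only that place was listed with DF2 siRNA 1 at 39.2 and DF2 siRNA 2 at 40.7. USP39, a splicing factor, had no peak.

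The other 10 USP genes have no group above, and 8 of them had a peak. USP24, a very large protease, had a stop codon peak at percentile 89.2, 86.9 and 85.8 and a 3′ UTR peak at 58.7, 36.6 and 32.6. USP38 had peaks at both ends of its transcript. Over its start, 2 control peaks at 32 and 79.8 corresponded to a single joined peak with DF2 siRNA 1 at 78.1 and with DF2 siRNA 2 at 88.5. Its stop codon peaks stood at 79.2, 57 and 65.6, and at 69, 55.7 and 64.2, so the count of 4 against 3 came from the joining alone.

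USP31 had 3 peaks in every list, the strongest at 62.4, 60.3 and 64.2, but not the same 3. The peak at chr16:23079722-23080121 was in control and with DF2 siRNA 2 only, while the long control peak (chr16:23067423-23072050) was split into 2 with DF2 siRNA 1. USP45, reported to act on the repair factor ERCC1, had a 3′ UTR peak in control at 29.1 and with DF2 siRNA 2 at 21.3, and none with DF2 siRNA 1. By score, the strongest peaks of USP2, USP35, USP40 and USP43 lay between 33.9 and 45.8 in control. They lay between 17.6 and 45.7 with DF2 siRNA 1 and between 26.6 and 55.3 with DF2 siRNA 2. By fold enrichment the same peaks stood at 77.2, 63.9 and 82.1 for USP35 and at 75.4, 36.8 and 89.5 for USP43. For USP2 these were 33.2, 52.3 and 68.2, and for USP40 37.5, 22.2 and 20.2. USP26 and USP50 had no peak.

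The 14 USP genes without a peak were USP6, USP11, USP14, USP18, USP26, USP27X, USP28, USP29, USP33, USP39, USP44, USP48, USP50 and USP51. No peak of any other gene on their strand lay in their RefSeq spans either; where the strand was not in the table both were searched. The lists hold no RNA level, so a gene without a peak has no value here.

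Deubiquitinases and related genes outside the USP naming rule gave a comparison by function. They include CYLD, USPL1 and PAN2, whose proteins have a USP-type fold. Of 37 such genes, 28 had a peak in some list, 27 in control, 23 with DF2 siRNA 1 and 25 with DF2 siRNA 2. With DF2 siRNA 1, OTUB2, PSMD14, MPND, ATXN3 and ZUP1 had a control peak and none there, 5 of 27. This stands against 4 of 31 USP genes and 22.1% of all control genes. With DF2 siRNA 2 it was STAMBP and PSMD14, 2 of 27, against 3 of 31 USP genes and 17.6% of all. BAP1 was the single gene with a peak in a DF2 list, that of DF2 siRNA 1, and none in control. Over all genes the shares in this direction were 11.1% with DF2 siRNA 1 and 8.06% with DF2 siRNA 2. The strongest control peaks among them were those of VCPIP1 at 94.9, OTUD7B at 92.9 and ZRANB1 at 92.7, below USP1, USP22 and USP47.

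The lists could not show how far YTHDF2 was depleted. YTHDF2 itself had a peak in every list, at percentile 99.1 in control, 84.3 with DF2 siRNA 1 and 66.6 with DF2 siRNA 2, and a peak's score is not a transcript level.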

How the data were processed

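Reads were aligned with HISAT2 to hg38, per the submitters' processing notes. Which peak caller and gene annotation were used is not stated in these sources. Per the file headers, each deposited peak has a score, a fold enrichment ratio and the −log10 of its FDR, all under 0.05, plus a gene and the transcript parts it touches. The file names say that r1 and r2 were merged; what those were is not stated. Most peak widths are multiples of 200 bases.

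Gene symbols were used as in the lists; updating them through RefSeq (GRCh38.p14) was an alternative. Peaks were compared by their exon blocks on the same strand (at least 1 shared base), a step tested on 3000 simulated peaks, all recovered. Intervals are exact binomial (Clopper-Pearson, 95%) and cover counting error only. All USP peaks lay within 2000 bases of their RefSeq gene. Place was assigned in the order stop codon, UTR, coding. The score of the deposited lists was ranked within each list. Full values were given to the 10 genes with the highest control score, to genes with a peak in some lists and not others, to genes with 3 or more peaks, and to genes whose control peaks overlapped none of a DF2 list. Members and lists were chosen with earlier results of these data known. One further gene of the family is not reported here. Python 3.11.15, pandas 2.3.3 and SciPy 1.17.1 were used.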

Additional observations from a re-analysis of the deposited data

How the results depend on the processing

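In all, 95 values were recomputed under other settings (stricter FDR, stronger peaks only, other overlap rules, other symbols, place rules). Of them, 77 stayed the same and 18 moved. Counts were called the same within a fixed ratio of the main value, and shares and medians within their interval. That ratio is wide: a fall from 31 to 22 control USP genes, with the top 50% by score, was called the same. Updating symbols left every USP count unchanged. Cutting to equal numbers kept the whole DF2 siRNA 1 list, so values of that list alone could not move there. Keeping the top 50% of each list by score left 16 USP genes with DF2 siRNA 1; by fold enrichment it left 16 with DF2 siRNA 1 and 17 with DF2 siRNA 2. In the counts that follow, a peak that was not kept is taken as missing. Genes with a control peak and none with DF2 siRNA 1 numbered 8 of 22 by score (all genes 22.1%). By fold they numbered 9 of 24 (28.4%). With DF2 siRNA 2 they numbered 7 of 24 by fold (21.7%), and 5 of 29 at an FDR under 0.01 (17.9%). Genes with a DF2 siRNA 1 peak and none in control numbered 2 of 16 by score (all genes 10.2%) and 1 of 16 by fold (15.5%), and with DF2 siRNA 2 they numbered 6 of 25 by score (7.33%) and 0 of 17 by fold (9.93%). Control peaks found with DF2 siRNA 1 were 60.6% by score and 57.6% by fold, and with DF2 siRNA 2 63.6% by fold. Genes with more than 1 peak with DF2 siRNA 2 were 24% by score. For peaks found and for genes with more than 1 peak, shares over all peaks or genes were not computed at these settings. When a stop codon peak had to touch nothing else, the stop codon share was 0 in each list, because each such peak also touches coding sequence or a UTR. The shortest USP peak covers 200 bases, so that outcome was fixed in advance, though its values are among the 18 that moved. The other settings named here keep fewer peaks, and no other cause was tested. With all 3 lists cut to the same number of top peaks by score, 4 of 31 USP control genes had no DF2 siRNA 1 peak. For DF2 siRNA 2 it was 3 of 31, and the background was 16.1% and 12.5%. Counting every peak that touches a 5′ UTR was chosen after seeing the data. No paired analysis was possible because each condition has 1 merged list. Depth limits every statement about a missing peak.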

Other observations

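Genes with USP in their symbol but outside the naming rule also had peaks. USPL1, a SUMO protease, had peaks in all 3 lists, the strongest at percentile 78.2 in control, 51.7 with DF2 siRNA 1 and 66.3 with DF2 siRNA 2. USP6NL, a GTPase-activating protein for RAB proteins, had 4 control peaks, 1 with DF2 siRNA 1 and 2 with DF2 siRNA 2, the strongest at 82.6, 73.8 and 68.3. The antisense RNAs USP3-AS1 and USP46-AS1 had peaks in control and with DF2 siRNA 2, and USP2-AS1 in control. None of these peaks shared a base with a USP peak on its own strand.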
